A study of Mus musculus with 6 samples.

Results

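The genes described here make, store, take up, break down or sense histamine and serotonin, the amines that mast cells pack into their granules. They were listed by name as 10 genes (Hdc, Tph1, Ddc, Slc18a2, Slc6a4, Slc22a3, Maoa, Maob, Hnmt and Hrh4). The row of each was the probe set that the platform annotation assigns to that symbol alone. This found 9 of the 10 among 19938 measured genes, each with 1 probe set, and Slc22a3, an organic cation transporter, was not analysed here. RNA came from bone marrow-derived mast cells of 2 genotypes on the C57BL/6J strain, miR-155 KO, which lacks the microRNA miR-155, and wild type (WT). All cultures were kept for 5 weeks with IL-3 at 0.5 ng/ml and SCF at 1 ng/ml, sensitized overnight with IgE against DNP at 0.2 µg/ml, and then stimulated for 1 h with 20 ng/ml of the antigen DNP-HSA. There were 3 independent cultures per genotype, each measured on 1 Affymetrix Mouse Gene 1.0 ST array, and no unstimulated cells, so the values compare genotypes after stimulation and carry no measure of the response to antigen. The labels do not say how many mice stood behind the cultures.

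Histamine is made from histidine by histidine decarboxylase. Serotonin is made from tryptophan in a pair of steps, hydroxylation and then decarboxylation. Both amines are pumped into the granule by a vesicular transporter, leave the cell when cross-linked IgE triggers degranulation, and are cleared by uptake, oxidation or methylation. Mast cells of rodents hold serotonin beside histamine, and the cells carry receptors through which released histamine can act back on them.

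The microRNA that the KO mice lack is shown here because it is what separates the genotypes. Both mature forms are given 5′ to 3′ from RefSeq (GRCm38.p6, plus strand of chromosome 16), with the seed, bases 2 to 8, in capitals. The 5p form lies at chr16:84714143-84714165 and the 3p form at chr16:84714182-84714202.
mmu-miR-155-5p: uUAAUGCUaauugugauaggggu
mmu-miR-155-3p: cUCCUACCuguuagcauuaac
The seeds of the forms differ. The probe set for Mir155 read 2.77, 2.91 and 2.90 on the KO arrays and 2.93, 2.88 and 3.17 on the WT arrays (log2 intensity), below the median of every array, so it checks neither the deletion nor the labels.

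The arrays were alike in scale, with medians between 3.67 and 3.74 and upper quartiles between 6.01 and 6.09 (log2 intensity). KO replicate 1 stood apart from the other arrays, at -32.0 on a leading principal component that held 48.3% of the variance, against -5.36 for KO replicate 2, -7.31 for KO replicate 3 and 10.6 to 19.5 for WT. Mast cell markers fitted the labels. Of 10 listed, 8 lay above the upper quartile of all 6 arrays, among them Kit, Fcer1a, Ms4a2 and Cpa3, and the mean of the 10 was 9.96 to 10.28 on KO arrays and 9.97 to 10.20 on WT arrays. All 6 neutrophil markers lay below the median of every array, as did 5 of 7 measured macrophage markers and 3 of 4 measured megakaryocyte markers. Cd68, a macrophage marker (7.60 to 8.52), and Itga2b, a megakaryocyte marker (10.66 to 10.95), lay above the upper quartile of every array. Of 4 basophil markers, Itga2 lay below the median of every array and Cd200r3, which mast cells also express, above the upper quartile of every array (8.50 to 8.51 on KO and 8.32 to 8.57 on WT arrays). Mcpt8 ran from 5.64 to 7.58 on KO arrays and from 5.23 to 7.56 on WT arrays, and Prss34 from 3.99 to 4.65 on KO arrays and from 4.11 to 5.61 on WT arrays. In bulk RNA, fewer cells with a transcript and less of it in each cell cannot be told apart.

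None of the 9 genes passed the test between genotypes (limma, two-sided, Benjamini-Hochberg adjusted over all 19938 genes, threshold 0.05), against 0.823% of all genes (0.507% higher and 0.316% lower in KO). At an unadjusted p under 0.05 there were 4 of the 9 (Hdc, Slc6a4, Maob and Hrh4), against 12.7% of all genes. The 3 KO arrays lay wholly on one side of the 3 WT arrays for 3 of the 9, against 17.2% of all genes. Hdc lay above, as did 8.18% of all genes, and Maob and Hrh4 lay below, as did 9.05%. With 9 genes, such counts are a description. The median difference of the 9, KO minus WT, was -0.04, and that of all genes was -0.01 (log2).

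**Figure D1:**
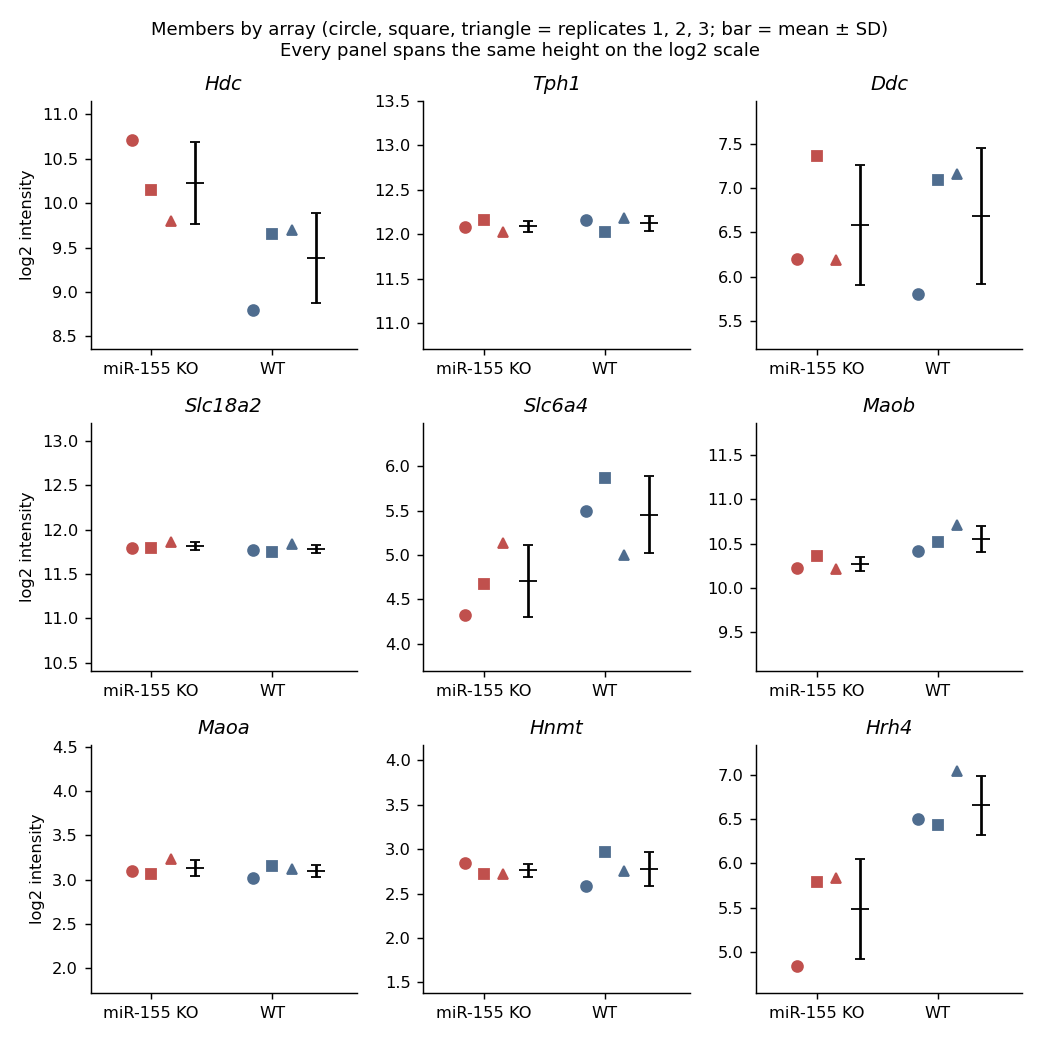
Log2 intensity of the 9 measured genes on each array, miR-155 KO left and WT right, with a circle, square and triangle for replicates 1, 2 and 3 and a bar for mean ± SD (n = 3). Hrh4, Hdc and Maob are the genes whose groups do not overlap, Ddc splits within both genotypes, and Tph1 and Slc18a2 hardly vary.

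Hdc (probe set 10487238) encodes histidine decarboxylase, the enzyme that makes histamine. It read 10.72, 10.15 and 9.80 on the KO arrays, against 8.79, 9.65 and 9.70 on the WT arrays (log2 intensity), above the 90th percentile of every array. All KO arrays lay above all WT arrays, but the gap between the lowest KO and the highest WT array was only 0.10, while each genotype spanned 0.92 (KO) and 0.91 (WT). The mean was 10.22 ± 0.46 in KO and 9.38 ± 0.51 in WT (SD, n = 3 each), a difference of 0.84 (SE 0.28, 1.79-fold, limma adjusted p = 0.233). The 95% interval of the difference, which is not adjusted for the number of genes, ran from 0.21 to 1.48. The difference was 0.60 without KO replicate 1, the highest array, and 0.55 without WT replicate 1, the lowest. Leaving out either of these arrays must shrink the difference. Without each of the other arrays it lay between 0.88 and 1.05. Hdc thus did not pass the test.

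Tph1 (probe set 10563570) encodes the tryptophan hydroxylase that starts serotonin synthesis outside the brain. Its signal lay above the 90th percentile of every array, with 12.08, 12.16 and 12.03 in KO and 12.16, 12.03 and 12.18 in WT. The groups overlapped and the 6 arrays spanned 0.16. The difference of -0.04 had a 95% interval from -0.23 to 0.16, that is, from 0.852-fold to 1.12-fold, and adjusted p was 0.931 (limma). Tph2, the brain form of the enzyme, lay between 2.56 and 2.78 on all arrays, below their medians.

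Ddc (probe set 10384378) encodes aromatic L-amino acid decarboxylase, which turns hydroxytryptophan into serotonin. Its level was 6.20, 7.36 and 6.19 in KO and 5.80, 7.09 and 7.16 in WT. KO replicates 1 and 3 and WT replicate 1 were low, and KO replicate 2 and WT replicates 2 and 3 were high, so the gene split within both genotypes and the groups overlapped. The 6 arrays spanned 1.56 log2 units, 2.94-fold, and the SD within genotypes, 0.72, was larger than that of 99.7% of genes. The difference was -0.10 (SE 0.41, limma adjusted p = 0.966) with a 95% interval from -1.03 to 0.82, that is, from 0.491-fold to 1.77-fold. Its sign depended on single arrays, from -0.54 without WT replicate 1 to 0.13 without WT replicate 3.

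Slc18a2 (probe set 10464370) encodes the vesicular monoamine transporter that loads histamine and serotonin into granules. It read 11.79, 11.79 and 11.86 in KO and 11.77, 11.75 and 11.83 in WT, and the arrays spanned 0.11. Its SD within genotypes, 0.04, was larger than that of only 3.26% of genes. The difference was 0.03 (95% interval from -0.15 to 0.21, limma adjusted p = 0.940). As a fold, KO over WT, that interval ran from 0.902 to 1.16.

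Slc6a4 (probe set 10378816) encodes the serotonin transporter of the plasma membrane, which takes released serotonin back into cells. Its signal was modest in all cultures, with 4.32, 4.68 and 5.13 in KO and 5.49, 5.87 and 5.01 in WT. The groups overlapped through KO replicate 3 and WT replicate 3, and the other KO arrays were below the other WT arrays. The mean was 4.71 ± 0.41 in KO and 5.46 ± 0.43 in WT (SD, n = 3 each), a difference of -0.75 (SE 0.24, 95% interval from -1.30 to -0.19, limma adjusted p = 0.225). The difference was -0.55 without KO replicate 1, the lowest array, and -0.54 without WT replicate 2, the highest. Leaving out either of these must shrink it. Without each of the other arrays it lay between -0.97 and -0.73. All 6 arrays lay above their medians and below their upper quartiles.

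The enzymes that destroy the amines were unequally detected. Maob (probe set 10603746), a monoamine oxidase of the outer mitochondrial membrane, read 10.22, 10.36 and 10.22 in KO and 10.42, 10.52 and 10.71 in WT. All KO arrays were below all WT arrays, with a gap of 0.05, and the difference of -0.28 (SE 0.10, 1.21-fold lower in KO, 95% interval from -0.51 to -0.05) did not pass (limma adjusted p = 0.270). Maoa (probe set 10598771), the related oxidase that prefers serotonin, lay between 3.02 and 3.23 on the 6 arrays. Hnmt (probe set 10480459), which inactivates histamine by methylation, lay between 2.59 and 2.97. Both were below the median of every array, so their signal may hold no transcript, and their differences of 0.04 (Maoa, limma adjusted p = 0.933) and -0.01 (Hnmt, limma adjusted p = 0.989) say little about either gene.

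Hrh4 (probe set 10454052) encodes the H4 histamine receptor, through which mast cells are drawn toward histamine. It had the largest difference of the 9 genes. Its level was 4.84, 5.78 and 5.84 in KO and 6.50, 6.43 and 7.04 in WT. All KO arrays were below all WT arrays, with 0.59 log2 units between the highest KO and the lowest WT array. The mean was 5.49 ± 0.56 in KO and 6.66 ± 0.33 in WT (SD, n = 3 each), a difference of -1.17 (SE 0.27, 2.25-fold lower in KO, 95% interval from -1.78 to -0.56). It did not pass over all genes (limma adjusted p = 0.0928). Without KO replicate 1, the lowest array, the difference was -0.85 (adjusted p = 0.0990), and over all 6 fits that left out 1 array it lay between -1.34 and -0.85 with adjusted p from 0.0990 to 0.227. The 4 basophil markers averaged 5.31 to 5.91 on KO arrays and 5.19 to 6.13 on WT arrays, and the 7 macrophage markers 3.73 to 3.96 on KO arrays and 3.94 to 4.06 on WT arrays. These ranges overlap. Prss34 differed by -0.69 (limma adjusted p = 0.464), Mcpt8 by -0.22 and Cd200r3 by 0.09. Cd68, the only macrophage marker above the upper quartile of every array, differed by -0.35 (limma adjusted p = 0.515). Cd68 and the basophil marker Prss34 were lowest on KO replicate 1, as was Hrh4. Prss34 was also highest on WT replicate 3 (5.61), as was Hrh4, while Cd68 was highest on WT replicate 2 (8.52). Mcpt8 and Cd200r3 were instead lowest on WT replicate 2 (5.23 and 8.32), and Mcpt8 was highest on KO replicate 3 (7.58). The part of basophils or macrophages in the Hrh4 result was not tested.

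**Figure D2:**
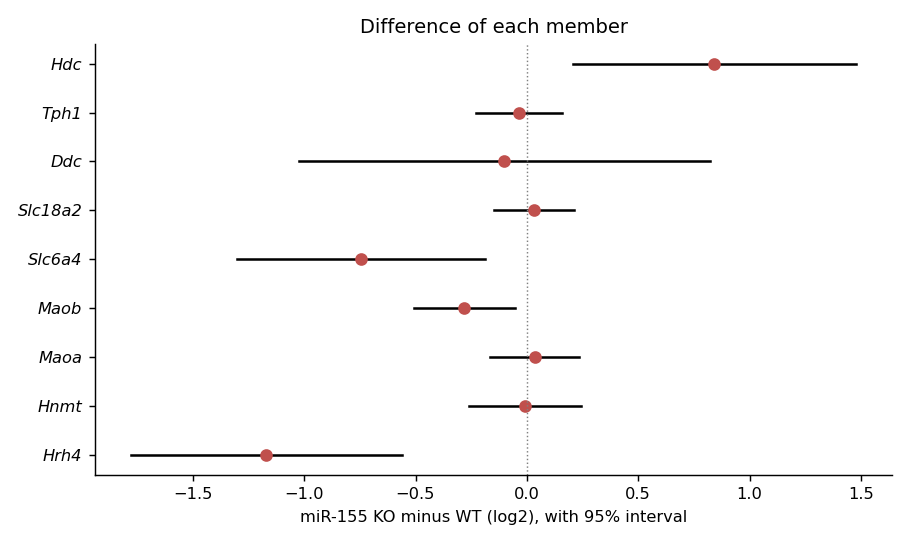
Difference of each measured gene, KO minus WT in log2 units, as a point with its 95% interval (limma, not adjusted for the number of genes). The intervals of Hdc, Slc6a4, Maob and Hrh4 exclude 0, none of the 9 passes after adjustment over all genes, and those of Tph1 and Slc18a2 are narrow around 0.

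The 9 genes differed in their level and in how much their cultures varied. Hdc, Tph1, Slc18a2 and Maob lay above the 90th percentile of all 6 arrays, and Maoa and Hnmt below the median of all 6. Of the 4 bright genes, Hdc alone spanned more than 1 log2 unit over the 6 arrays (1.92, or 3.79-fold). The other genes with such a span were Hrh4 (2.20), Ddc (1.56) and Slc6a4 (1.55). The SD within genotypes of Hdc, Slc6a4, Ddc and Hrh4 was larger than that of at least 98.5% of all genes.

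For these 4 genes, the 3 most similar patterns were taken by Pearson's r over the 6 arrays among genes with a mean of at least 6 and a span of at least 1 log2 unit (346 or 347 genes). The arrays are few and the genes share them, so r is a description. The patterns nearest to Hdc were Tatdn2 (r = 0.967), Aatf (r = 0.952) and Nfkbie, an inhibitor of NF-κB (r = 0.938). Since r was taken over both genotypes, the direction of their differences follows from the choice. Hrh4 was matched most closely by Primpol (r = 0.996), Rab27b, a GTPase of granule secretion (r = 0.995), and Tespa1 (r = 0.995). Hrh4 and these genes were lowest on KO replicate 1 and highest on WT replicate 3. Those arrays were also at the ends of the leading principal component (-32.0 and 19.5). The part of that component in the likeness was not tested. Slc6a4 was nearest to Fam117b (r = 0.977), Gpr162 (r = 0.977) and Samd14 (r = 0.936). Ddc had no pattern as close, its nearest being Bace2 (r = 0.837), Kcnab2 (r = 0.814) and Gnb4 (r = 0.750).

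Of 54 other genes of amine metabolism, listed from general knowledge with earlier results of these data known, 51 were measured. In the test over all genes 0 rose, 1 fell and 50 did not pass, that is 1.96% called against 0.823% of all genes, so nothing is read from this share. An unadjusted p under 0.05 was found for 5 of the 51 (9.80%, against 12.7% of all genes), and the groups did not overlap for 6 of the 51 (11.8%, against 17.2%). The median difference of the 51 was -0.05 (log2), and that of all genes was -0.01. The gene that fell was Pdxk, pyridoxal kinase, which makes the pyridoxal phosphate that histidine decarboxylase and aromatic amino acid decarboxylase both use as cofactor. It read 7.53, 7.73 and 7.40 in KO, against 8.21, 8.38 and 8.23 in WT. The groups did not overlap. The difference was -0.72 (SE 0.11, 1.64-fold lower in KO, 95% interval from -0.96 to -0.48, limma adjusted p = 0.0269). Of the 6 fits without 1 array it passed only without KO replicate 2 (adjusted p = 0.0201). The adjusted p was 0.0585 and 0.0772 without KO replicates 1 and 3, and 0.0925, 0.100 and 0.0902 without WT replicates 1, 2 and 3. The difference itself stayed between -0.81 and -0.64.

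Genes that transport histidine, tryptophan and other amino acids, into the cell or across endolysosomes, had negative differences in 5 of 5 cases. So did 70.6% of the 51 other genes of amine metabolism, these included, and 52.0% of all genes. For Slc15a3, which lay below the median of every array, and for Slc7a5 the difference was close to 0. Of the 5, 0 passed (limma), and 3 had an unadjusted p under 0.05, as did 12.7% of all genes. The groups did not overlap for 3 of the 5, against 17.2% of all genes. Slc7a8, a light chain of the transporter for large neutral amino acids, read 9.45, 9.67 and 9.53 in KO and 9.86, 10.04 and 10.26 in WT, without overlap, a difference of -0.50 (SE 0.12, limma adjusted p = 0.0967). Slc15a4, a transporter of histidine and peptides in endolysosomes, differed by -0.33 (SE 0.11, limma adjusted p = 0.207), and its groups did not overlap either. Slc3a2, the heavy chain that pairs with Slc7a5 and Slc7a8, differed by -0.23 (limma adjusted p = 0.357), while Slc7a5 differed by -0.02 and Slc15a3, a relative of Slc15a4, by -0.002.

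The genes of tetrahydrobiopterin, the cofactor of tryptophan hydroxylase, were measured in 7 of 7 cases. Of these 0 passed (limma), and 0 had an unadjusted p under 0.05. Gch1, the enzyme that opens its synthesis, read 9.80, 9.18 and 9.09 in KO and 9.14, 9.18 and 9.07 in WT. Only KO replicate 1 was higher than the other arrays, and the difference of 0.23 did not pass (limma adjusted p = 0.682). Qdpr, which recycles the cofactor, differed by -0.22 (limma adjusted p = 0.466).

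Among 16 measured genes of breakdown and conversion 0 passed (limma), the lowest adjusted p was 0.294, and 1 gene had an unadjusted p under 0.05. Aldh9a1, an aldehyde dehydrogenase that oxidizes aldehydes from amines, had the lowest p at -0.27 (SE 0.10). Aldh2, which oxidizes the aldehyde made by monoamine oxidase, was bright at 10.67 to 10.91 on all arrays and differed by -0.07. Aoc1, the diamine oxidase that degrades histamine outside cells, lay below the median of all arrays, as did 4 of 4 measured amine transporters other than Slc18a2 and Slc6a4.

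The other histamine receptors differed little beside Hrh4, and those differences were not set against it by a test. Hrh2 differed by -0.13 (limma adjusted p = 0.765), Hrh1 by -0.06 (limma adjusted p = 0.923) and Hrh3 by 0.01 (limma adjusted p = 0.978). Hrh3 lay below the median of every array, and Hrh1, at 3.69 to 4.08, close to the medians. The differences of Hrh1 and Hrh3 thus say little about either gene. Of 14 serotonin receptor genes, 12 lay below the median of every array and 0 of the 14 passed (limma). Their lowest adjusted p was 0.617, and 0 had an unadjusted p under 0.05.

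**Figure D3:**
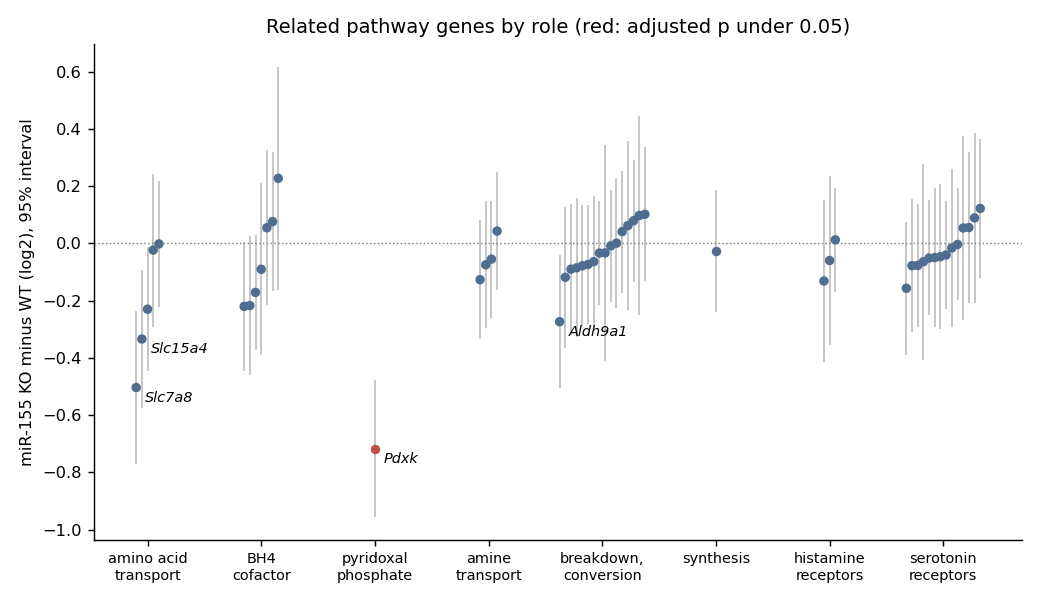
Differences of the 51 other genes of amine metabolism, KO minus WT in log2 units, by role, with 95% intervals (limma). Pdxk, in red, is the gene that passed at -0.72, and the 5 amino acid transport genes lie between -0.50 and -0.00.

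The promoters of Hdc and Slc6a4, the genes with a listed promoter that had the largest differences among the 9, and of Pdxk, the gene that fell, are shown because they are the sequences nearest to these values. RefSeq entries for GRCm38.p6 gave 8 of the 10 listed genes a promoter of 250 bases before and 50 after the start. Capitals mark 3 motifs, searched on both strands and chosen with the sequences in view: GATA, the core letters that GATA factors bind, and CACGTG and CACATG, E-boxes of the kind that the mast cell factor MITF binds. The windows are chr2:126618629-126618928 (Hdc, minus strand), chr11:76998347-76998646 (Slc6a4, plus strand) and chr10:78464899-78465198 (Pdxk, minus strand), each written 5′ to 3′ along its gene.
Hdc: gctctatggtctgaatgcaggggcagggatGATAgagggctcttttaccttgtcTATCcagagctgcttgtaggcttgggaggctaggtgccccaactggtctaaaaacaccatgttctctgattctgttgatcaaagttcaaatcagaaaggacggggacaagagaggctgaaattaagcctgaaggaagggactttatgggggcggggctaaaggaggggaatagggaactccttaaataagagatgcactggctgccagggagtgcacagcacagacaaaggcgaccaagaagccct
Slc6a4: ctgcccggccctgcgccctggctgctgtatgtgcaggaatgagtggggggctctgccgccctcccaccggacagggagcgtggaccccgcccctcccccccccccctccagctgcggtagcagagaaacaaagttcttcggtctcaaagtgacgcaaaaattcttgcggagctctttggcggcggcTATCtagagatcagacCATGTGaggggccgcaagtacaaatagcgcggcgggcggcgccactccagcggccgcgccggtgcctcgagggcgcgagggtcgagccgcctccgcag
Pdxk: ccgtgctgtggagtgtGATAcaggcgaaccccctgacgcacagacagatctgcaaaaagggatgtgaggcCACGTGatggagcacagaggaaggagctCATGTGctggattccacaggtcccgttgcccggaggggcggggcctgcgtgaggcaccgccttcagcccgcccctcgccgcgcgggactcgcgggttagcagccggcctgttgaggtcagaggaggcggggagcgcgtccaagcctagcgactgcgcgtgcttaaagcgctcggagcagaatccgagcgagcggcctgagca
The Hdc window held GATA at 220 and 196 bases before the start and neither E-box. The Slc6a4 window held GATA at 64 and CACATG at 48 bases before the start. The Pdxk window held all 3 motifs, GATA at 234, CACGTG at 180 and CACATG at 152 bases before the start. Of all 32851 promoter windows of this length, 57.9% held GATA, 7.15% CACGTG and 14.2% CACATG. A match is only a run of letters, and no binding was measured. Of the factors, Gata2 differed by -0.11 (limma adjusted p = 0.666) and Mitf by -0.29 (limma adjusted p = 0.336).

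**Figure D4:**
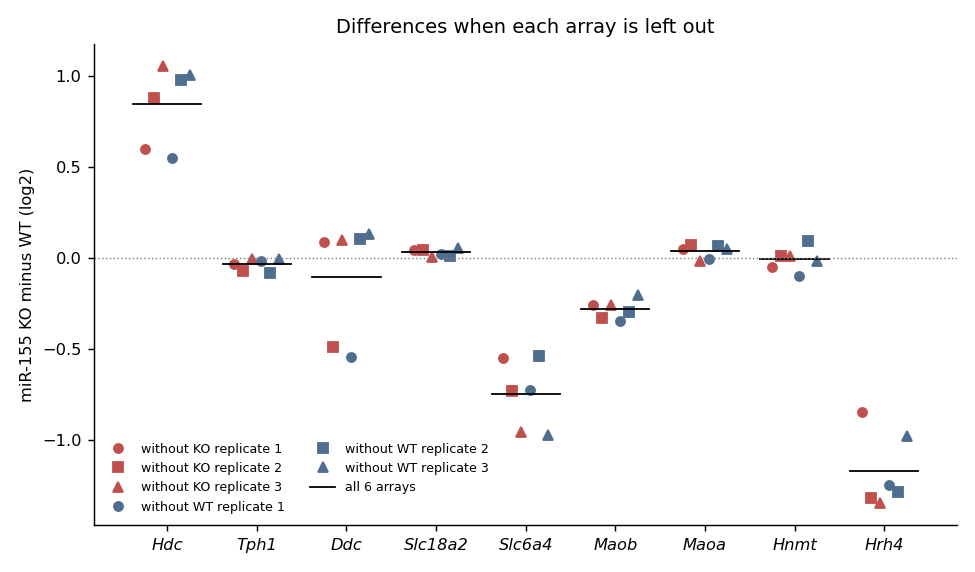
Difference of each measured gene, KO minus WT in log2 units, with each of the 6 arrays left out in turn (red for a KO array, blue for a WT array) and with all 6 (line). Hdc ranges from 0.55 to 1.05 and Hrh4 from -1.34 to -0.85, both on 1 side of 0, while Ddc crosses 0.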

How the data were processed

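The deposited values are log2 intensities that the authors made with RMA, per the submitters' processing notes. RMA removes background, brings the arrays to a common scale and combines the probes of a transcript cluster. No version of RMA or genome build is given in the sources used here. No further normalization was applied. The table held 35557 probe sets, of which 21789 had 1 gene symbol in the platform annotation, 1621 had several, and 12147 are unnamed here. A gene with several probe sets was represented by the brightest on average, leaving 19938 genes.

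All were fitted in limma 3.58.1 (R 4.3.3) with genotype as the only term and 4 residual and 4.68 prior degrees of freedom. In simulated arrays 99.05% of genes changed by 1 log2 unit were recovered in this comparison over 19938 genes, and 5.71% of calls were false. The changed genes were drawn at random from all genes, with independent values. The simulated spreads were those of the fit after shrinkage toward a common value, so they differed less between genes than the measured spreads. The recovery may thus be higher than in the data. That recovery does not describe genes varying as widely as Hdc, Slc6a4, Ddc and Hrh4. The genes described in depth and the related list were chosen with earlier results of these data known. Genes named are the listed ones, related genes that changed or had the 4 lowest p, mast cell markers, Mir155 and the patterns nearest to the widely varying genes. Others (Tph2, Slc3a2, Slc7a5, Gch1, Qdpr, Aldh2, Aoc1, Hrh1 to Hrh3, Slc15a3, Itga2, Cd200r3, Mcpt8, Prss34, Cd68, Itga2b, Gata2 and Mitf) were chosen after their values were seen. Precision is limited by 3 arrays per genotype. Plots used matplotlib 3.10.9.

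The alternatives were a replicate block, 2 other scalings, a filter on dim genes, another prior, all probe sets, averaged probe sets, array weights and leaving out each array. Deviations of same-numbered arrays from their group means correlated at -0.01, -0.06 and 0.24 for replicates 1, 2 and 3. Those of differently numbered KO and WT arrays correlated at -0.25 to 0.24. With 3 arrays per genotype, these values cannot exclude a pairing. The numbers were not taken as pairs, because no label gives them a shared origin.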

Additional observations from a re-analysis of the deposited data

How the results depend on the processing

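With the replicate number as a block, the count of listed genes that changed went to 1, because Hrh4 passed (adjusted p = 0.0445, difference -1.17 as before), and 199 genes passed in all. The numbers share no stated origin, and 129 of those 199 were among the 164 called without the block. Testing every probe set raises the number of tests and also re-estimates the prior over all of them. This left 4 genes changed and 0 of the related genes (Pdxk, limma adjusted p = 0.136). Leaving out 1 array gave 15 to 167 changed genes, 0 listed genes, and 0 to 1 related genes. Pdxk passed in 8 of 14 alternatives, with an adjusted p from 0.0123 to 0.136. Signs turned for differences near 0. Ddc was at 0.054 with array weights and between -0.54 and 0.13 without 1 array, Maoa was between -0.014 and 0.071, and Hnmt between -0.10 and 0.092. Hdc, Slc6a4 and Maob passed in 0 of 14 alternatives (limma), with adjusted p from 0.161 to 0.499, from 0.159 to 0.494 and from 0.202 to 0.521, and kept their signs. Maoa and Hnmt have no value under the filter on dim genes. The median difference of the listed genes, which was -0.036, went to -0.10 with the filter on dim genes, where 7 genes are left, and lay between -0.10 and 0.013 without 1 array, above 0 only without WT replicate 2. Signal below the array medians limits what can be said of Maoa and Hnmt, and 3 arrays per genotype limit the rest.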
